A study of Mus musculus with 15 samples.

Results

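The genes described here are 10 members of the mouse Notch pathway, chosen by name: the receptors Notch1, Notch2 and Notch3, the ligands Jag1, Jag2 and Dll1, and the target genes Hes1, Hey1, Hey2 and Heyl. All 10 were found among the 46603 Ensembl gene IDs of the count files. RNA was sequenced from mouse embryonic fibroblasts of BALB/c embryos aged 10.5 days that carried no functional copy (KO), a single functional copy (HET) or the normal copies (WT) of Actb, the beta-actin gene. On Matrigel-coated plates, confluent cells of every group were moved at day 0 into the osteogenic medium OsteoMax-XF with dexamethasone and forskolin, which was meant to turn them into osteoblasts. The 15 libraries form 5 groups of 3: KO, HET and WT at day 14, and KO and WT at day 4. No HET library of day 4 was analysed here, and the labels do not say how many embryos or lines stand behind a genotype. The stated aim was to find how global gene expression changes with the Actb genotype of the starting fibroblasts.

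Notch receptors are activated by ligands of the Jagged and Delta-like families on a neighbouring cell. Binding leads to cleavage of the receptor, and its intracellular domain enters the nucleus, joins the DNA-binding protein RBPJ and switches on targets such as the Hes and Hey genes, which encode transcriptional repressors. In bone, Notch signalling is known to restrain the maturation of osteoblast precursors, and Notch3 is best known from smooth muscle cells and pericytes. Forskolin, which all groups received, activates adenylyl cyclase and raises cAMP.

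Promoter sequences from RefSeq on GRCm38.p6 are shown for Dll1 and Notch3, the members with the widest range of group means among those that reach 5 CPM (counts scaled to a common library total) in a group, and for Jag1 and Hey2, the other members with a match to a marked motif. Only bases upstream of every annotated start are printed, 5′ to 3′ on the gene's strand. Capitals mark TGACG, the core of the cAMP response element, or TGGGAA, the RBPJ core. Each match here lies on the other strand and therefore reads CGTCA or TTCCCA.
Dll1: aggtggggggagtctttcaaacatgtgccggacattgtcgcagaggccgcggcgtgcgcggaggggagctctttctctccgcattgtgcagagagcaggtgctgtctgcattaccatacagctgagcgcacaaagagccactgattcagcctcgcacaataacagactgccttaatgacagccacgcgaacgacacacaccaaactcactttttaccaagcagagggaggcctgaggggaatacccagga
Notch3: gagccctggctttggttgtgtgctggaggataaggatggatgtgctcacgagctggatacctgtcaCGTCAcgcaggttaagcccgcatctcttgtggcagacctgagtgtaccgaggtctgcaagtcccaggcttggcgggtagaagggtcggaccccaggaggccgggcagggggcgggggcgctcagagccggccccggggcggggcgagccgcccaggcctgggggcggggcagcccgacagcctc
Jag1: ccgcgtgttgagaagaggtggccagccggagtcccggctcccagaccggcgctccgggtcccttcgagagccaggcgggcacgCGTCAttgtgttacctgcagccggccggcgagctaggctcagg
Hey2: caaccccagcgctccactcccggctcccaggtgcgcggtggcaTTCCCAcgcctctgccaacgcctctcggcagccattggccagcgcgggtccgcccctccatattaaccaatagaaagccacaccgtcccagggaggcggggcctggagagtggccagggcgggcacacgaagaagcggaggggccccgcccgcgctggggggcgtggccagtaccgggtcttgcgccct
The Dll1 run is chr17:15376933-15377182, the Notch3 run chr17:32166891-32167140, the Jag1 run chr2:137116645-137116770 and the Hey2 run chr10:30842802-30843033, each on the minus strand. The Notch3 match starts 184 bases upstream of the RefSeq start, the Jag1 match 167 and the Hey2 match 207 bases upstream. Of the members, 7 had an entry in the promoter table, with 8 promoters in all. In the 250 bases upstream of their starts, searched on both strands, TGGGAA was found in the Hey2 promoter only and TGACG in those of Notch3 and Jag1. Over all 32851 mouse promoters of the same length, 21.6% hold TGGGAA and 17.8% hold TGACG, so such matches are common. None of the 8 held the full cAMP response element TGACGTCA, which 1.55% of all promoters hold, the E-box CACGTG, which 6.02% hold, or the CArG box bound by serum response factor, which 1.47% hold. Another motif searched, CACNAG, bound by Hes proteins, matched in Notch1, Notch2 and Notch3, against 36.7% of all promoters, and overlapped no marked motif.

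The libraries held 21.5 to 24.8 M counted reads in KO, 19.9 to 22.2 M in HET and 20.02 to 20.42 M in WT at day 14, and 30.7 to 35.7 M in KO and 25.7 to 47.5 M in WT at day 4. Actb followed the labels in every library: at day 14 it stood at 43.0 to 46.5 CPM in KO, 1437 to 1642 in HET and 2947 to 3067 in WT, and at day 4 at 129.9 to 138.6 in KO and 1164 to 1193 in WT. Of 10 osteoblast markers, 5 reached 1 CPM in each group of day 14 and 6 in each of day 4. Some defining markers were nearly absent, with at most 25 counts per group for Bglap (osteocalcin), at most 4 for Sp7 and at most 4 for Ibsp and Dmp1. Genes of the mitochondrial genome took 1.08% to 1.12% of counts in KO, 0.729% to 0.851% in HET and 0.484% to 0.542% in WT at day 14, and 0.836% to 0.845% in KO and 0.415% to 0.421% in WT at day 4. Their part in the results below was not tested. No label states whether the replicates are separate cultures, so p-values measure only the spread between these libraries, which may be technical. In bulk RNA, fewer cells of a type and less RNA per cell cannot be told apart.

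Long genes varied between libraries of HET and WT at day 14, and the Notch receptors are among the longest members, with 14232, 10782 and 8089 bases of exon in Notch1, Notch2 and Notch3. Across 4836 genes with over 5000 bases of exon, the median deviation from the group mean on the log2 scale was 0.08, -0.15 and 0.07 in HET replicates 1, 2 and 3. In WT at day 14 it was 0.08, -0.01 and -0.07, and in the other 9 libraries it stayed within 0.01 of 0. Short genes, with under 2000 bases of exon, deviated the other way. HET replicate 2 stood farthest out, and results that rest on it are given below with and without it.

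**Figure D1:**
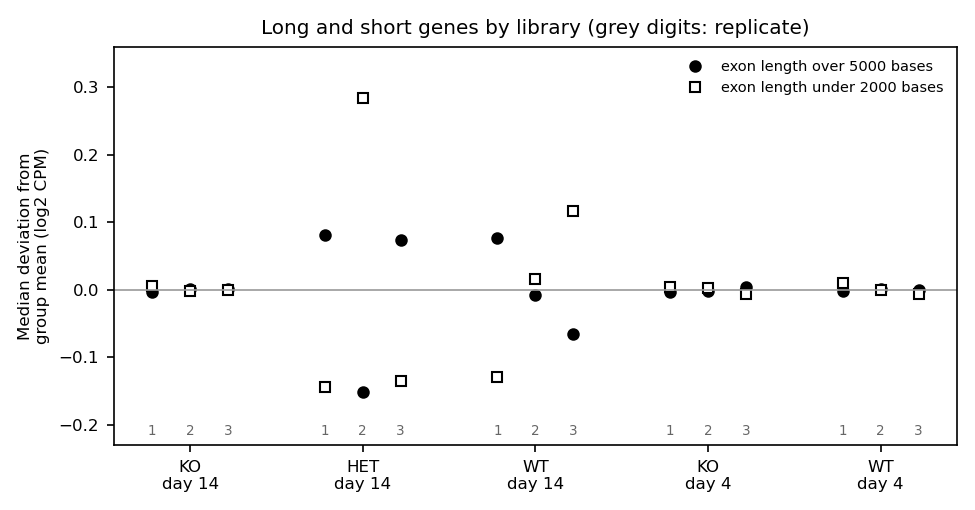
Median deviation from the group mean (log2 CPM, vertical axis) of 4836 genes with over 5000 bases of exon (filled circles) and 1270 genes with under 2000 bases (open squares), for each of the 15 libraries (horizontal axis, grey digits are replicates). HET replicate 2 has the lowest value for long genes, -0.15, and the highest for short genes, 0.28, while KO libraries of both days and WT libraries of day 4 lie within 0.01 of 0 for long genes.

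Of the 10 members, 8 had enough counts to be tested. Hey1, with 85 counts in all, and Heyl, with 2, did not, and Hey2 passed with 138. Fold changes are log2 values ± SE, and adjusted p-values are from the quasi-likelihood test of edgeR, adjusted by Benjamini-Hochberg over 15296 genes, with a threshold of 0.05. The comparisons share libraries (KO, HET and WT of day 14 enter several of them) and are therefore not independent of each other.

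At day 14, Notch2, Jag1, Dll1 and Hes1 were higher and Notch1 and Jag2 lower in KO than in WT, while Notch3 and Hey2 did not pass the test. These are 4 higher and 2 lower of 8 tested members, where 63.1% of all tested genes were called, 30.9% higher and 32.2% lower. In HET against WT, Hes1 was higher and Notch1, Jag2 and Hey2 were lower, which makes 1 higher and 3 lower against 28.3% and 29.9% of all genes (58.3% in either direction). In KO against HET, Notch1, Notch2, Jag1, Dll1 and Hey2 were higher and none was lower, against 29.4% and 30.1% of all genes (59.5% in either direction). No member was lower at an unadjusted p under 0.05 either, and DESeq2 also called 0 lower. At day 4, Notch3 was higher and Jag1, Jag2, Dll1 and Hes1 were lower in KO than in WT, 1 higher and 4 lower against 35.7% and 33.8% of all genes (69.5% in either direction). Shares of this size in the background mean that a call is common for any gene in these cells. The median log2 change of the tested members was 0.49 in KO against WT at day 14, -0.03 in HET against WT, 0.61 in KO against HET and -0.68 in KO against WT at day 4. Over all tested genes the corresponding medians were -0.02, -0.02, -0.01 and 0.03.

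**Figure D2:**
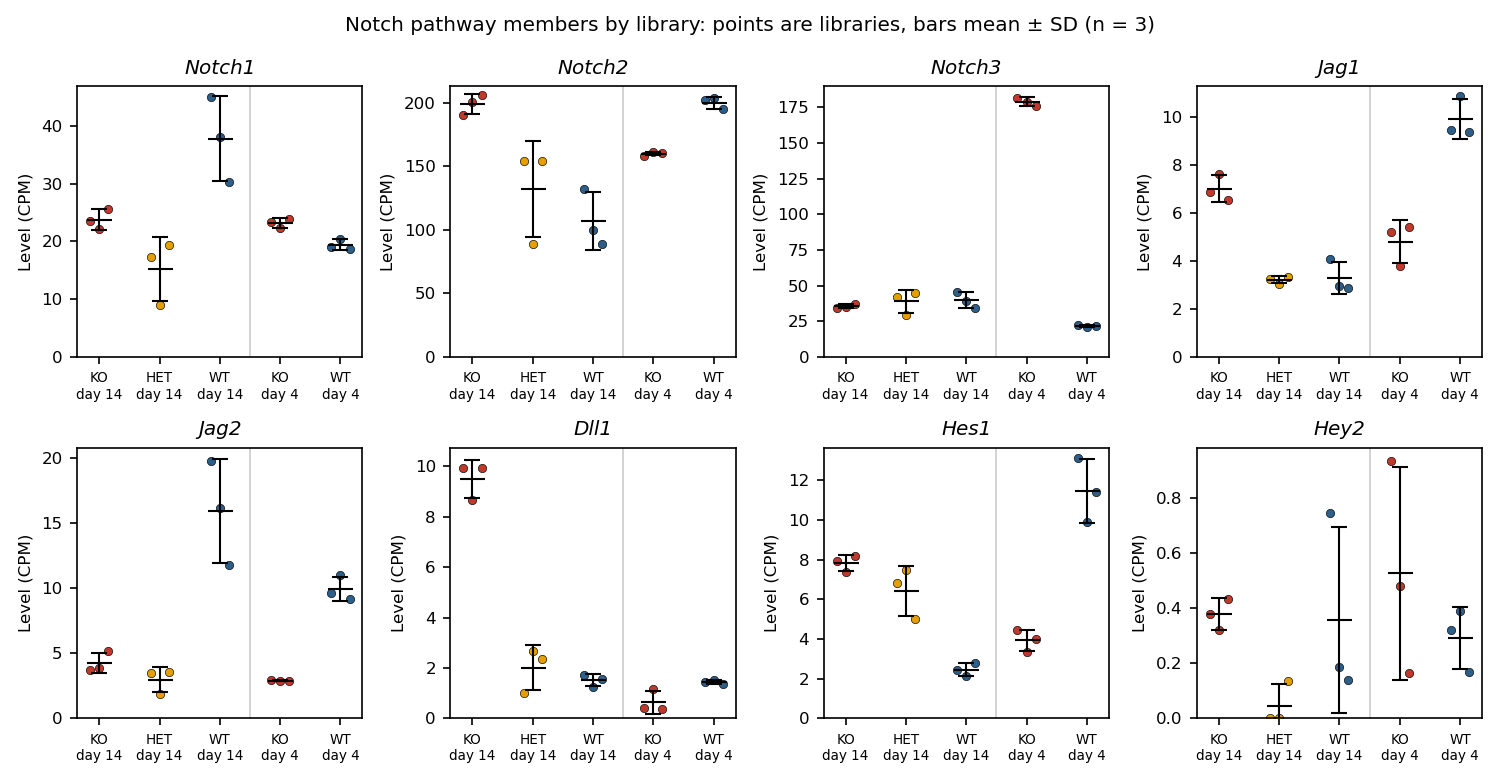
Levels of the 8 tested members in CPM (vertical axes, each with its own scale) in the 5 groups (horizontal axes). Points are libraries and bars are the mean ± SD of 3 libraries. Notch3 is highest in the KO libraries of day 4 and Dll1 in the KO libraries of day 14, and neither of these groups overlaps any other.

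**Figure D3:**
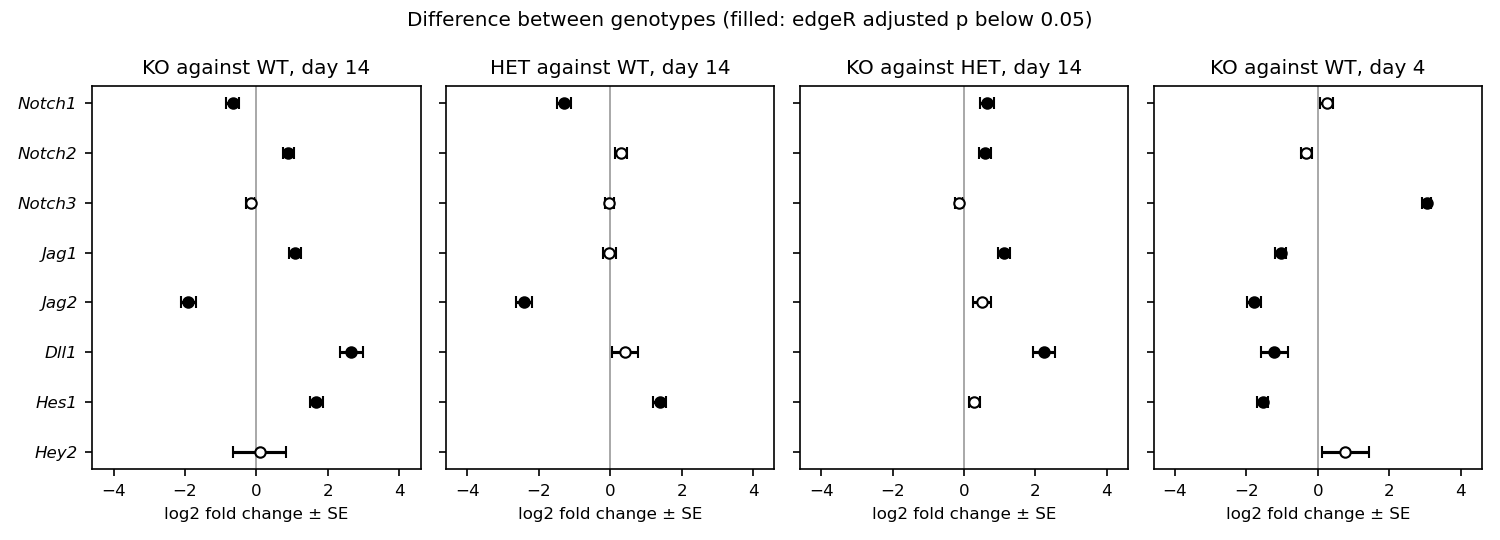
Log2 fold change ± SE (horizontal axes) of the tested members in 4 genotype comparisons, filled where the edgeR adjusted p is below 0.05. Hey2 is left out of both HET panels, since HET held 3 counts. Dll1, Jag1 and Hes1 lie right of 0 in KO against WT at day 14 and left of 0 at day 4.

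Notch3 (ENSMUSG00000038146, chromosome 17, 32120820 to 32166852 of GRCm38, minus strand) stood out among the receptors at day 4. It was at 182, 179 and 176 CPM in KO and at 22.4, 20.8 and 21.5 CPM in WT at day 4. At day 14 it was at 34.2, 35.1 and 36.9 CPM in KO, at 42.2, 29.5 and 45.1 in HET and at 45.5, 38.9 and 34.3 in WT. The KO libraries of day 4 lay apart from all 12 others, and the 3 genotypes overlapped at day 14. The log2 difference between KO and WT was 3.05 ± 0.12 at day 4 (edgeR adjusted p = 4.49e-12) and -0.16 ± 0.12 at day 14 (edgeR adjusted p = 0.268). The difference between these effects was -3.21 ± 0.17 (edgeR adjusted p = 2.14e-10). In KO, Notch3 fell between the days by 2.34 ± 0.12 on the log2 scale (edgeR adjusted p = 1.51e-10), and in WT it rose by 0.88 ± 0.12 (edgeR adjusted p = 9.20e-06).

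At day 14 no genotype comparison of Notch3 passed the test, with -0.02 ± 0.12 for HET against WT (edgeR adjusted p = 0.901) and -0.14 ± 0.12 for KO against HET (edgeR adjusted p = 0.342). Without HET replicate 2, KO was lower than HET by -0.30 (edgeR adjusted p = 0.00165, range over all alternatives 0.00165 to 0.905). With a correction for exon length, KO was lower than WT by -0.22 (edgeR adjusted p = 0.0221, range over all alternatives 0.0221 to 0.768). An antisense gene, Gm17276, overlaps Notch3 and held 356 counts in all libraries, against 27788 for Notch3. Without strand information, reads from the shared stretch cannot be told apart.

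Smooth muscle and pericyte markers moved with Notch3 at day 4. The summed level of the 10 listed markers was 2538 to 2558 CPM in KO and 64.5 to 65.5 CPM in WT at day 4, and 6 and 4 of the 10 reached 1 CPM in these groups. Acta2, smooth muscle alpha-actin, made up most of it in KO with 2116 ± 10.1 CPM, against 0.439 ± 0.133 in WT (SD, n = 3 each). Of the 10, 6 were higher in KO and 1 lower, where 35.7% of all tested genes were higher and 33.8% lower (69.5% in either direction). Myh11 and Kcnj8 had too few counts to be tested. The contractile genes Cnn1 and Tagln were higher by 8.34 ± 0.37 and 5.81 ± 0.12 on the log2 scale (edgeR adjusted p = 9.62e-14 and 1.23e-15), and Des, Mcam and Pdgfrb by 3.24 ± 0.21, 2.37 ± 0.08 and 1.79 ± 0.10 (edgeR adjusted p = 9.16e-11, 6.99e-13 and 4.03e-10). Cspg4, the pericyte proteoglycan NG2, was lower by -3.50 ± 0.36 (edgeR adjusted p = 6.98e-08). The defining markers Rgs5, Myh11 and Kcnj8 were at or near 0: Rgs5 had no count in either group, Myh11 had 16 counts in KO and 7 in WT, and Kcnj8 had 1 in KO and 6 in WT. At day 14 the sum was 534 to 553 CPM in KO, 228 to 252 in HET and 162 to 177 in WT, while Notch3 overlapped between these groups. The markers did not move as a set at day 14. Acta2, Cnn1 and Tagln were higher in KO than in WT by 4.24 ± 0.07, 3.21 ± 0.47 and 2.41 ± 0.12 (edgeR adjusted p = 1.26e-15, 2.37e-06 and 7.29e-11). Pdgfrb, Mcam and Cspg4 were lower by -2.64 ± 0.11, -1.76 ± 0.11 and -7.08 ± 0.71 (edgeR adjusted p = 2.68e-11, 4.56e-10 and 5.27e-10). Des and Rgs5 did not pass the test. The part of these cells or genes in the Notch3 difference was not tested.

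Notch2 (ENSMUSG00000027878, chromosome 3, 98013527 to 98150361, plus strand) was at 190, 201 and 206 CPM in KO, at 154, 88.7 and 154 in HET and at 132, 99.6 and 89.0 in WT at day 14. At day 4 it was at 158, 161 and 161 CPM in KO and at 202, 204 and 195 in WT. KO lay above WT and HET without overlap at day 14 and below WT without overlap at day 4, while HET and WT overlapped. The log2 difference between KO and WT at day 14 was 0.90 ± 0.16 (edgeR adjusted p = 1.95e-04), and that between KO and HET was 0.59 ± 0.16 (edgeR adjusted p = 0.00547), or 0.37 without HET replicate 2 (edgeR adjusted p = 0.00867, range over all alternatives 4.72e-15 to 0.0350). At day 4 it was -0.32 ± 0.16, which missed the threshold (edgeR adjusted p = 0.0857). The spread used in that test comes from all 5 groups: fitted on the 6 libraries compared alone, the difference was -0.33 (edgeR adjusted p = 5.70e-20, range over all alternatives 5.70e-20 to 0.156).

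For HET against WT, the Notch2 difference of 0.31 ± 0.16 missed the threshold with all libraries (edgeR adjusted p = 0.122). It was 0.52 without HET replicate 2 (edgeR adjusted p = 6.92e-04) and 0.49 without WT replicate 1 of day 14 (edgeR adjusted p = 0.0187), with a range over all alternatives of 6.40e-05 to 0.395. Between the days, Notch2 fell in WT by 0.90 ± 0.16 on the log2 scale (edgeR adjusted p = 1.15e-04). In KO it was higher at day 14 than at day 4 in every library, with a log2 difference of 0.31 ± 0.16 that missed the threshold (edgeR adjusted p = 0.104); with only the 6 libraries compared it was 0.32 (edgeR adjusted p = 5.96e-20, range over all alternatives 5.96e-20 to 0.206). The effect of genotype differed between the days by 1.22 ± 0.23 (edgeR adjusted p = 2.24e-04).

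Notch1 (ENSMUSG00000026923, chromosome 2, 26457903 to 26516663, minus strand) was highest in WT at day 14. It was at 23.5, 22.1 and 25.7 CPM in KO, at 17.3, 8.99 and 19.4 in HET and at 45.0, 38.1 and 30.3 in WT at day 14, and at 23.5, 22.3 and 23.8 in KO and 19.1, 20.5 and 18.7 in WT at day 4. At day 14 the order was HET, KO and WT, with no overlap between any of them. The log2 difference from WT was -0.67 ± 0.19 in KO (edgeR adjusted p = 0.00539) and -1.30 ± 0.19 in HET (edgeR adjusted p = 2.85e-05). With any 1 HET or WT library of day 14 left out, the HET difference ranged from -1.51 to -1.04 (edgeR adjusted p up to 1.92e-04). KO was above HET by 0.64 ± 0.20 (edgeR adjusted p = 0.0109), or by 0.37 without HET replicate 2 (edgeR adjusted p = 0.0110). That call was lost when only these 6 libraries were fitted, with 0.63 (edgeR adjusted p = 0.0610, range over all alternatives 2.63e-08 to 0.0610).

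At day 4 the Notch1 libraries of KO lay above those of WT without overlap. The log2 difference of 0.26 ± 0.18 missed the threshold (edgeR adjusted p = 0.229), and with the 6 libraries alone it was 0.25 (edgeR adjusted p = 4.71e-04, range over all alternatives 4.71e-04 to 0.385). Notch1 rose in WT between the days by 0.96 ± 0.18 (edgeR adjusted p = 2.13e-04). In KO the difference between the days was 0.04 ± 0.19 (edgeR adjusted p = 0.882). The effect of genotype differed between the days by -0.92 ± 0.26 (edgeR adjusted p = 0.00572).

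Divided by exon length, Notch2 led the receptors in every group but KO at day 4, where Notch3 did. The Notch2 level per kb of exon was 18.5 ± 0.754 CPM in KO, 12.3 ± 3.50 in HET and 9.92 ± 2.09 in WT at day 14, and 14.8 ± 0.142 in KO and 18.6 ± 0.436 in WT at day 4 (SD, n = 3 each). Notch3 was at 22.1 ± 0.387 CPM per kb in KO and 2.66 ± 0.0980 in WT at day 4. The summed level per kb of Notch1, Notch2, Notch3 and Notch4 was 24.7 ± 0.966 CPM in KO, 18.2 ± 4.89 in HET and 17.7 ± 3.23 in WT at day 14, and 38.9 ± 0.251 in KO and 22.7 ± 0.528 in WT at day 4. Notch3 took 56.3% to 57.5% of that sum in KO at day 4, against 11.2% to 12.1% in WT at day 4. At day 14 it took 17.6% to 17.8% in KO, 25.1% to 29.1% in HET and 26.5% to 28.6% in WT. Notch1 took 6.30% to 7.04% in KO, 5.03% to 6.40% in HET and 14.3% to 15.7% in WT at day 14, so its share in WT exceeded that in both other genotypes in every library.

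**Figure D4:**
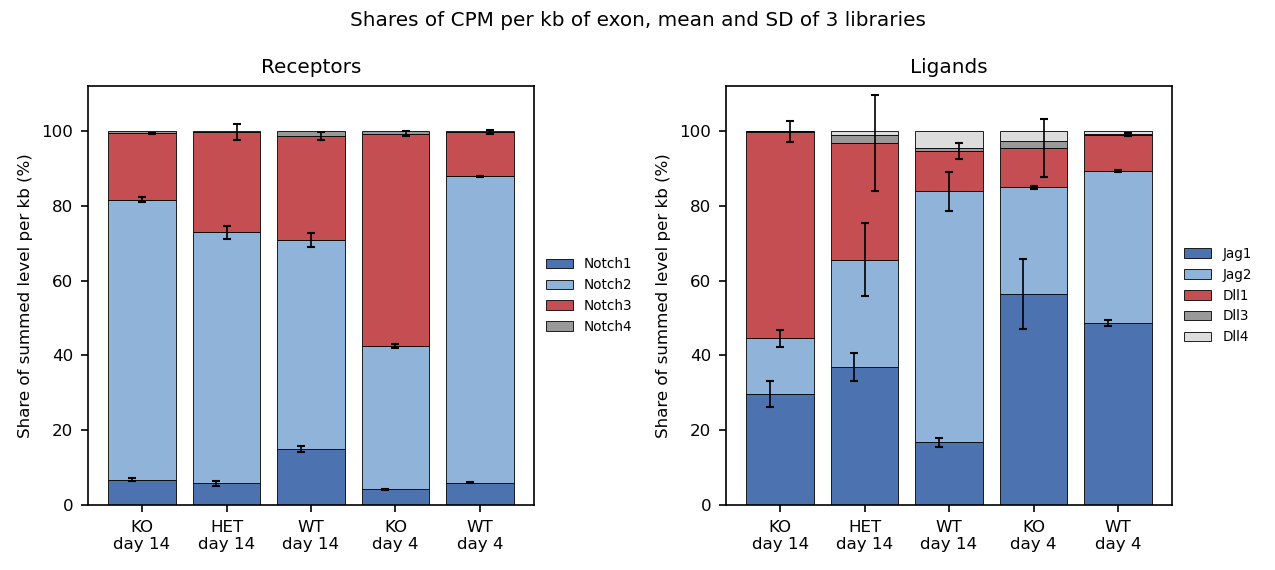
Share of the summed level per kb of exon (vertical axes, %) held by each receptor (left) and each ligand (right) in the 5 groups (horizontal axes), as means of 3 libraries. Bars at the upper edge of a segment are the SD of that segment. Notch3 takes 56.9% of the receptors in KO at day 4, and Dll1 takes 55.2% of the ligands in KO at day 14.

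Dll1 (ENSMUSG00000014773, chromosome 17, 15367354 to 15376872, minus strand), the Delta-like ligand whose promoter heads the sequences above, was low in every group except KO at day 14. It was at 9.94, 8.64 and 9.92 CPM in KO, at 1.01, 2.68 and 2.34 in HET and at 1.73, 1.25 and 1.54 in WT at day 14, and at 0.392, 1.15 and 0.358 in KO and 1.44, 1.51 and 1.35 in WT at day 4. The 3 KO libraries of day 14 lay above all others, and the KO libraries of day 4 lay below those of WT, without overlap. At day 14 the log2 difference was 2.66 ± 0.32 between KO and WT (edgeR adjusted p = 2.68e-06) and 2.25 ± 0.31 between KO and HET (edgeR adjusted p = 1.19e-05). HET and WT overlapped, with a difference of 0.41 ± 0.36 (edgeR adjusted p = 0.354).

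In KO, Dll1 rose between the days by 3.94 ± 0.36 on the log2 scale (edgeR adjusted p = 6.11e-08), the widest change of any member between the days. In WT the days overlapped, with a difference of 0.07 ± 0.36 (edgeR adjusted p = 0.872). The effect of genotype differed between the days by 3.87 ± 0.51 (edgeR adjusted p = 4.45e-06). At day 4 KO was below WT by -1.21 ± 0.39 (edgeR adjusted p = 0.0102), on 62 counts in KO and 153 in WT. That call was lost without KO replicate 1 (-0.98, edgeR adjusted p = 0.0504) or KO replicate 3 (-0.92, edgeR adjusted p = 0.0567), and the difference was -1.94 without KO replicate 2 (edgeR adjusted p = 2.96e-04), over alternatives from 3.64e-05 to 0.0567. The antisense gene A930024N18Rik overlaps the start of Dll1, including the promoter run shown, and held 19 counts in all, against 1111 for Dll1.

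The summed levels of blood and epithelial markers were also highest in KO at day 14, where Dll1 was. The summed level of 10 blood markers was 38.6 to 41.5 CPM in KO, 7.47 to 8.02 in HET and 8.41 to 9.06 in WT at day 14, and 5.76 to 6.84 in KO and 3.22 to 4.10 in WT at day 4. In the same order of groups, 2, 1, 2, 1 and 1 of the 10 reached 1 CPM. Listed macrophage markers went both ways in KO against WT at day 14. Cd68 was higher by 2.59 ± 0.10 (edgeR adjusted p = 3.73e-12) and Csf1r lower by -3.38 ± 0.80 (edgeR adjusted p = 3.34e-04). Lyz2 did not pass the test (0.77 ± 0.40, edgeR adjusted p = 0.106). The defining markers Adgre1 and Hbb-bs had no count in KO at day 14. The summed level of 8 epithelial markers was 9.56 to 10.5 CPM in KO, 0.406 to 1.47 in HET and 1.90 to 3.46 in WT at day 14, and 4.20 to 4.46 in KO and 0.137 to 0.338 in WT at day 4. At least 1 CPM was reached by 1 of the 8 in KO of either day and by 0 in the other groups. Epcam, Krt5 and Esrp1 had no count in KO at day 14. The epithelial markers also went both ways in KO against WT at day 14. Krt14 was higher by 3.49 ± 0.42 (edgeR adjusted p = 1.60e-06) and Epcam was lower (edgeR adjusted p = 4.38e-05). Krt18 did not pass the test (-1.51 ± 1.03, edgeR adjusted p = 0.195). Their part in the Dll1 difference was not tested.

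Jag1 (ENSMUSG00000027276, chromosome 2, 137081456 to 137116644, minus strand), a Jagged ligand, changed order between the days. It was at 6.89, 7.64 and 6.52 CPM in KO, at 3.26, 3.05 and 3.34 in HET and at 4.06, 2.97 and 2.85 in WT at day 14, and at 5.22, 3.77 and 5.42 in KO and 9.47, 10.9 and 9.40 in WT at day 4. KO lay above both other genotypes at day 14 and below WT at day 4, without overlap. The log2 difference between KO and WT was 1.09 ± 0.17 at day 14 (edgeR adjusted p = 3.21e-05) and -1.04 ± 0.14 at day 4 (edgeR adjusted p = 8.67e-06), and these effects differed by 2.13 ± 0.22 (edgeR adjusted p = 3.92e-07). Jag1 fell in WT between the days by 1.59 ± 0.16 (edgeR adjusted p = 1.75e-07) and rose in KO by 0.54 ± 0.15 (edgeR adjusted p = 0.00564). KO exceeded HET by 1.12 ± 0.17 (edgeR adjusted p = 2.74e-05), while HET and WT overlapped, with a difference of -0.03 ± 0.18 (edgeR adjusted p = 0.889).

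Jag2 (ENSMUSG00000002799, chromosome 12, 112907819 to 112929776, minus strand), the other Jagged ligand, was lower than in WT in KO at both days and in HET. It was at 3.68, 3.89 and 5.14 CPM in KO, at 3.50, 1.84 and 3.56 in HET and at 19.7, 16.2 and 11.8 in WT at day 14, and at 2.93, 2.85 and 2.89 in KO and 9.63, 10.99 and 9.19 in WT at day 4. Every WT library exceeded every KO and HET library of its day. The log2 difference from WT was -1.90 ± 0.21 in KO at day 14 (edgeR adjusted p = 9.70e-07), -2.41 ± 0.23 in HET (edgeR adjusted p = 1.44e-07) and -1.79 ± 0.21 in KO at day 4 (edgeR adjusted p = 1.27e-06). The KO effect differed between the days by -0.12 ± 0.30, which did not pass the test (edgeR adjusted p = 0.747). KO lay above HET without overlap, with a difference of 0.51 ± 0.24 that missed the threshold (edgeR adjusted p = 0.0856, range over all alternatives 0.0199 to 0.305). It passed with no filter beyond 1 count (0.52, edgeR adjusted p = 0.0199) and was 0.27 without HET replicate 2 (edgeR adjusted p = 0.303).

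Between the days, Jag2 rose in WT by 0.68 ± 0.19 on the log2 scale (edgeR adjusted p = 0.00400). In KO it rose by 0.56 ± 0.23 (edgeR adjusted p = 0.0458), a call that was lost without any of KO replicates 2 and 3 of day 14 and 1, 2 and 3 of day 4 (edgeR adjusted p = 0.0580 to 0.212) and with the replicate number as a block (edgeR adjusted p = 0.0580, range over all alternatives 0.00312 to 0.212). The sum of markers of endothelial cells, which are known to carry Jagged ligands, also stood apart at day 4. It was 1.49 to 2.17 CPM in KO and 12.1 to 15.3 in WT, with 0 and 2 of 10 markers at 1 CPM or more. Kdr made up most of it in WT with 9.24 ± 0.838 CPM, and Tie1, Erg and Sox17 had no count in either group. Kdr, Cdh5 and Esam were lower in KO by -5.00 ± 0.33, -6.05 ± 0.75 and -1.49 ± 0.52 (edgeR adjusted p = 1.26e-10, 3.08e-08 and 0.0153). Pecam1 and Vwf leaned higher in KO, by 0.48 ± 0.47 and 0.40 ± 0.36, and did not pass the test (edgeR adjusted p = 0.373 and 0.333). At day 14 the sum was 3.38 to 4.94 CPM in KO, 2.84 to 3.88 in HET and 4.01 to 5.09 in WT. Their part in the Jag2 difference was not tested.

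Per kb of exon, the ligand that led differed between groups. Dll1 led in KO at day 14 with 2.25 ± 0.176 CPM per kb, where Jag1 stood at 1.20 ± 0.0975 and Jag2 at 0.608 ± 0.113. Jag2 led in WT at day 14 with 2.28 ± 0.573 CPM per kb, where Jag1 stood at 0.565 ± 0.115 and Dll1 at 0.357 ± 0.0567. The share of Dll1 in the summed level per kb of Jag1, Jag2, Dll1, Dll3 and Dll4 was 52.1% to 57.7% in KO, 17.6% to 43.0% in HET and 8.996% to 13.2% in WT at day 14. The share of Jag2 was 12.9% to 17.5% in KO, 17.9% to 37.1% in HET and 61.0% to 70.4% in WT at day 14. HET thus lay between KO and WT in both shares without overlap, but not in both levels. The HET level of Jag2, 0.426 ± 0.140 CPM per kb, was the lowest of the 3 genotypes. That of Dll1, 0.476 ± 0.210, overlapped WT. HET replicate 2, which stood out in long genes, had the lowest Jag2 and the highest Dll1 level of HET, 0.264 and 0.636 CPM per kb. Leaving it out could only narrow the HET ranges of the shares. At day 4 Jag1 led in both genotypes, with 45.9% to 63.4% in KO and 48.0% to 49.4% in WT, which overlap. The summed ligand level per kb was 4.07 ± 0.140 CPM in KO, 1.49954 ± 0.158 in HET and 3.38 ± 0.648 in WT at day 14, and 1.46 ± 0.0426 in KO and 3.51 ± 0.320 in WT at day 4. KO at day 4 and HET at day 14 were the low groups.

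Hes1 (ENSMUSG00000022528, chromosome 16, 30064384 to 30067796, plus strand) encodes a repressor and is a widely used readout of Notch signalling. It was at 7.91, 7.36 and 8.18 CPM in KO, at 6.80, 7.47 and 5.00 in HET and at 2.43, 2.13 and 2.80 in WT at day 14, and at 4.44, 3.36 and 3.99 in KO and 13.1, 9.90 and 11.4 in WT at day 4. WT was the lowest genotype at day 14 and the higher one at day 4, without overlap in either case. The log2 difference from WT at day 14 was 1.67 ± 0.18 in KO (edgeR adjusted p = 8.27e-07) and 1.38 ± 0.19 in HET (edgeR adjusted p = 9.52e-06). At day 4 it was -1.55 ± 0.15 in KO (edgeR adjusted p = 1.99e-07), and the KO effect differed between the days by 3.22 ± 0.24 (edgeR adjusted p = 7.93e-09). KO and HET overlapped, with a difference of 0.29 ± 0.16 (edgeR adjusted p = 0.131), or 0.41 without HET replicate 2 (edgeR adjusted p = 0.0396, range over all alternatives 0.0396 to 0.482).

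Hes1 fell in WT between the days by 2.23 ± 0.18 on the log2 scale (edgeR adjusted p = 8.91e-09) and rose in KO by 0.99 ± 0.16 (edgeR adjusted p = 5.79e-05). Hes1 was the only target gene among the members above 1 CPM in any library. No promoter of Hes1 was available here.

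The Hey repressors were near the limit of detection. Hey2 (ENSMUSG00000019789, chromosome 10, 30832359 to 30842801, minus strand), whose promoter holds the RBPJ core, had 9, 7 and 11 counts in KO, 0, 0 and 3 in HET and 16, 4 and 3 in WT at day 14. At day 4 it had 31, 15 and 6 counts in KO and 14, 15 and 4 in WT. Libraries of a group differed widely, and at day 14 each HET library was at or below each WT library. HET was lower than WT (edgeR adjusted p = 0.0409) and lower than KO (edgeR adjusted p = 0.0315). The ratio of WT over HET was 7.39 with a 95% counting interval of 2.23 to 38.5, and that of KO over HET was 7.89 with an interval of 2.43 to 40.6. Such intervals cover counting error only. The HET against WT call was lost without HET replicate 1 (edgeR adjusted p = 0.118), HET replicate 2 (edgeR adjusted p = 0.0675) or WT replicate 1 (edgeR adjusted p = 0.266), and KO against HET was lost in 4 such fits (edgeR adjusted p = 0.0559 to 0.0925).

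Between KO and WT, Hey2 did not pass the test at day 14 (0.09 ± 0.74, edgeR adjusted p = 0.925) or at day 4 (0.78 ± 0.65, edgeR adjusted p = 0.296). Hey1 (ENSMUSG00000040289, chromosome 3, 8663359 to 8667256, minus strand) had 7, 2 and 1 counts in KO, 1, 0 and 4 in HET and 8, 4 and 3 in WT at day 14. At day 4 it had 12, 15 and 14 counts in KO and 6, 7 and 1 in WT, without overlap. It was below the filter on low counts. Tested without that filter, the difference at day 4 had an unadjusted p of 0.0177 and missed the threshold (edgeR adjusted p = 0.0525). Heyl (ENSMUSG00000032744, chromosome 4, 123233556 to 123249875, plus strand) had 2 counts, both in a single WT library of day 14, so no difference was detectable at this depth.

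Between the days, 3 tested members rose and 3 fell in WT, where 39.7% of all genes rose and 34.9% fell (74.6% in all). In KO 4 rose and 1 fell, against 30.8% and 30.1% of all genes (60.9% in all). The effect of genotype differed between the days for 6 of 8 tested members, 4 more positive and 2 more negative at day 14, against 30.7% and 34% of all genes (64.7% in all). Dll1, Jag1 and Hes1 passed the test in opposite directions at the 2 days, below WT at day 4 and above WT at day 14. Jag2 was the member below WT at both days.

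The other genes of the pathway were followed through 60 listed genes, of which 54 were tested. In KO against WT at day 14, 25 were higher and 11 lower, which is 66.7% called against 63.1% of all tested genes, with a median log2 change of 0.13 against -0.02. In HET against WT, 29 were higher and 13 lower, 77.8% against 58.3%, with a median of 0.27 against -0.02. In KO against HET 11 were higher and 24 lower, 64.8% against 59.5%, with a median of -0.23 against -0.01. At day 4, 25 were higher and 16 lower in KO than in WT, 75.9% against 69.5%, with a median of 0.16 against 0.03. Between the days, 28 rose and 20 fell in WT, 88.9% against 74.6%, and 15 rose and 20 fell in KO, 64.8% against 60.9%. Counts of the single lists below are to be read against the same shares of all tested genes: 63.1% called in KO against WT at day 14 (30.9% higher and 32.2% lower), 58.3% in HET against WT (28.3% and 29.9%), and 69.5% in KO against WT at day 4 (35.7% and 33.8%).

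**Figure D5:**
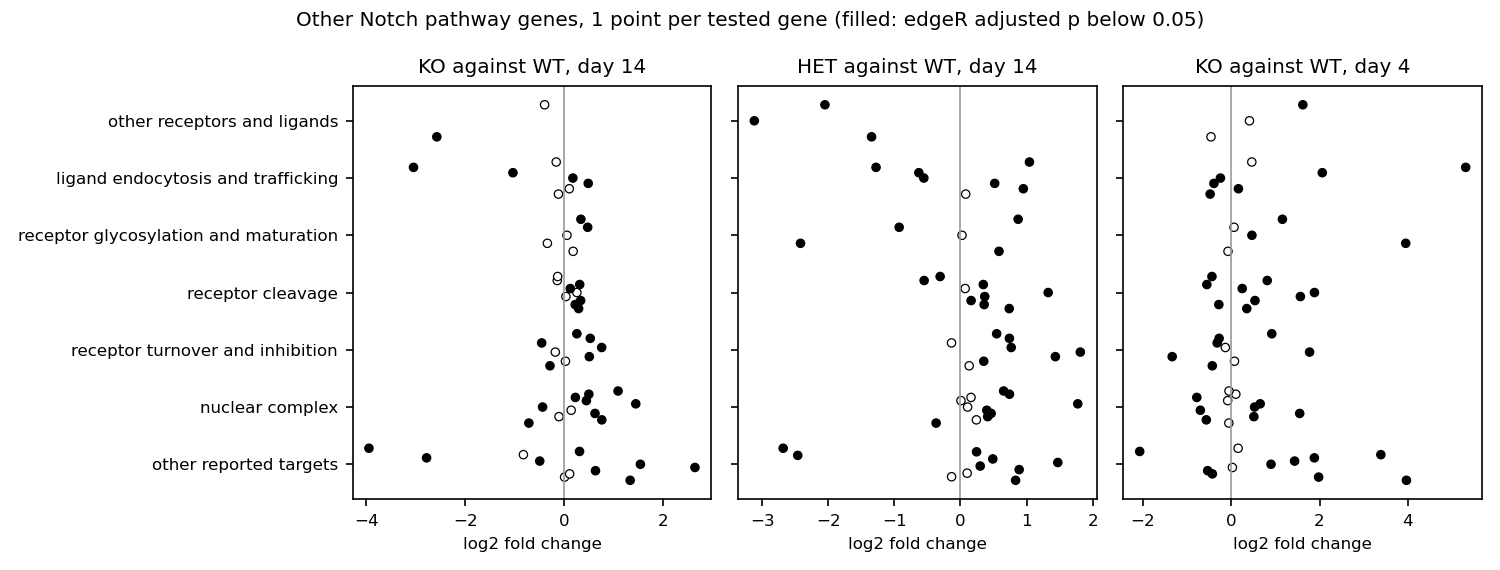
Log2 fold change (horizontal axes, each with its own scale) of the other listed pathway genes in 7 functional groups (rows) for 3 genotype comparisons. Each point is a tested gene, filled where the edgeR adjusted p is below 0.05, and vertical offsets within a row only separate points. Genes with 3 counts or fewer in a compared group are left out. In KO against WT, receptor cleavage genes lie within 1 log2 unit of 0 at day 14, and Neurl1b lies farthest right at day 4, at 5.31.

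Among ligand trafficking genes, Neurl1b, which encodes a ubiquitin ligase of the Neuralized family that acts on ligands, had the widest difference between KO and WT at both days. It was at 1.19 ± 0.277 CPM in KO, 4.08 ± 0.434 in HET and 9.91 ± 0.919 in WT at day 14, and at 24.0 ± 0.964 in KO and 0.608 ± 0.0209 in WT at day 4 (SD, n = 3 each). Its log2 difference between KO and WT was -3.05 ± 0.18 at day 14 and 5.31 ± 0.19 at day 4 (edgeR adjusted p = 7.96e-11 and 4.09e-14), and the effects differed by -8.36 ± 0.26 (edgeR adjusted p = 3.58e-14). Mib1, the Mindbomb ligase that prepares ligands for endocytosis, was higher at day 14 in KO, by 0.48 ± 0.09, and in HET, by 0.52 ± 0.09, and lower in KO at day 4, by -0.39 ± 0.09 (edgeR adjusted p = 3.73e-04, 2.10e-04 and 0.00137). Of the 7 genes of this list, 2 were higher and 2 lower in KO against WT at day 14, 3 and 3 in HET against WT, and 3 and 3 in KO against WT at day 4. That is 57.1%, 85.7% and 85.7% called, against 63.1%, 58.3% and 69.5% of all genes.

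Among genes that glycosylate or mature the receptors, the Fringe genes Lfng and Rfng and the glucosyltransferase gene Poglut1 were among those called. Lfng, which encodes a glycosyltransferase that changes how receptors respond to each ligand family, was at 3.12 ± 0.404 CPM in KO, 0.736 ± 0.256 in HET and 3.96 ± 1.07 in WT at day 14, and at 5.42 ± 0.731 in KO and 0.349 ± 0.176 in WT at day 4. It was lower in HET than in WT by -2.42 ± 0.33 (edgeR adjusted p = 6.89e-06) and higher in KO than in WT at day 4 by 3.95 ± 0.35 (edgeR adjusted p = 1.14e-08). Rfng was higher than in WT by 0.33 ± 0.06 in KO and 0.87 ± 0.06 in HET at day 14 and by 1.16 ± 0.06 in KO at day 4 (edgeR adjusted p = 2.00e-04, 5.85e-09 and 9.22e-11). Poglut1 was higher than in WT at day 14 by 0.47 ± 0.06 in KO (edgeR adjusted p = 9.24e-06) and lower by -0.93 ± 0.07 in HET (edgeR adjusted p = 7.91e-09). Of 5 tested genes of this list, 2 were higher and 0 lower in KO against WT at day 14 (0 lower also at an unadjusted p under 0.05), 2 and 2 in HET against WT, and 3 and 0 in KO against WT at day 4 (again 0 lower unadjusted). That is 40.0%, 80.0% and 60.0% called, against 63.1%, 58.3% and 69.5% of all genes.

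Of the 9 receptor cleavage genes, 5 were higher and 0 lower in KO against WT at day 14 (0 lower at an unadjusted p under 0.05), with a list median of 0.22, 6 and 2 in HET against WT, and 6 and 3 in KO against WT at day 4. The shares called were 55.6%, 88.9% and 100%, against 63.1%, 58.3% and 69.5% of all genes. Psen2, a catalytic subunit of gamma-secretase, was higher in KO at day 4 by 0.81 ± 0.08 and lower in HET at day 14 by -0.55 ± 0.08 (edgeR adjusted p = 2.18e-07 and 2.44e-05). Adam10, the sheddase that makes the cut preceding gamma-secretase, was higher than in WT at day 14 by 0.74 ± 0.08 in HET and 0.29 ± 0.09 in KO (edgeR adjusted p = 2.01e-06 and 0.00818).

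Receptor turnover genes included Dtx4, a Deltex ligase, at 40.0 ± 2.38 CPM in KO, 160 ± 20.3 in HET and 45.4 ± 5.43 in WT at day 14. It was higher in HET than in WT by 1.81 ± 0.09 (edgeR adjusted p = 2.83e-10) and higher in KO than in WT at day 4 by 1.78 ± 0.10 (edgeR adjusted p = 2.66e-10). Fbxw7, which targets the receptor's intracellular domain for degradation, was higher in KO than in WT at day 14 by 0.75 ± 0.08 (edgeR adjusted p = 5.96e-07). Of the 8 genes of this list, 6 were higher and 0 lower in HET against WT (0 lower unadjusted), 4 and 2 in KO against WT at day 14 and 2 and 4 at day 4. In each of these 75.0% were called, against 58.3%, 63.1% and 69.5% of all genes.

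In the nuclear complex, Rbpj, the DNA-binding partner of all Notch receptors, was at 99.7 ± 1.81 CPM in KO, 95.5 ± 11.4 in HET and 85.5 ± 6.19 in WT at day 14, and at 168 ± 2.04 in KO and 289 ± 0.876 in WT at day 4. It was lower in KO at day 4 by -0.78 ± 0.07 (edgeR adjusted p = 6.05e-08) and fell between the days by 1.76 ± 0.07 in WT and by 0.75 ± 0.07 in KO (edgeR adjusted p = 5.13e-12 and 1.78e-07). Maml3, a Mastermind coactivator, was higher than in WT at day 14 by 1.78 ± 0.19 in HET and 1.44 ± 0.20 in KO (edgeR adjusted p = 9.71e-07 and 9.60e-06). Kat2b, an acetyltransferase, was higher in KO than in WT by 0.62 ± 0.06 at day 14 and 1.55 ± 0.06 at day 4 (edgeR adjusted p = 5.96e-07 and 5.49e-12). In HET at day 14 Kat2b was higher than in WT by 0.46 ± 0.06 (edgeR adjusted p = 1.47e-05). Of the 11 genes of this list, 7 were higher and 2 lower in KO against WT at day 14, 6 and 1 in HET against WT, and 4 and 3 in KO against WT at day 4. The shares called were 81.8%, 63.6% and 63.6%, where those of all genes were 63.1%, 58.3% and 69.5%.

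Other genes reported as Notch targets did not follow a single direction. Efnb2, an ephrin ligand, was at 94.5 ± 4.12 CPM in KO, 18.7 ± 1.86 in HET and 15.2 ± 1.24 in WT at day 14, and at 85.5 ± 0.684 in KO and 84.0 ± 2.23 in WT at day 4. It was higher in KO than in WT by 2.64 ± 0.07 at day 14 (edgeR adjusted p = 2.05e-13), and the effect of genotype differed between the days by 2.61 ± 0.10 (edgeR adjusted p = 3.94e-12). Nrarp, a feedback inhibitor of Notch signalling, was lower than in WT at day 14 by -3.95 ± 0.64 in KO (edgeR adjusted p = 1.35e-05) and by -2.68 ± 0.51 in HET (edgeR adjusted p = 1.88e-04), on 9 counts in KO, 19 in HET and 127 in WT. Hes7, a relative of Hes1, was also lower than in WT at day 14, by -2.78 ± 0.52 in KO (edgeR adjusted p = 9.50e-05) and by -2.46 ± 0.50 in HET (edgeR adjusted p = 2.91e-04). It too was scarce, with 11 counts in KO, 12 in HET and 69 in WT. At day 4 it was higher in KO than in WT by 1.88 ± 0.44 (edgeR adjusted p = 8.83e-04), on 72 counts in KO and 21 in WT. Nrarp and Hes7 thus lay below WT at day 14 where Hes1 lay above it.

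At day 4, the cell cycle gene Ccnd1 was at 41.1 ± 0.585 CPM in KO and 2.60 ± 0.243 in WT, a log2 difference of 3.97 ± 0.13 (edgeR adjusted p = 1.52e-13). Myc, a growth regulator, was at 83.8 ± 1.95 CPM in KO and 353 ± 11.9 in WT, a difference of -2.08 ± 0.05 (edgeR adjusted p = 4.04e-15). At day 14 both were higher in KO than in WT, Ccnd1 by 1.33 ± 0.10 and Myc by 0.31 ± 0.05 (edgeR adjusted p = 2.52e-08 and 2.82e-05). Of the 11 tested genes of this list, 5 were higher and 3 lower in KO against WT at day 14, 6 and 2 in HET against WT, and 6 and 3 in KO against WT at day 4, so that 72.7%, 72.7% and 81.8% were called, against 63.1%, 58.3% and 69.5% of all genes. Hes5, another Hes target, had 2 counts in all libraries together.

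Among the receptors and ligands outside the 10 members, Notch4 was at 1.36 ± 0.343 CPM in KO, 0.433 ± 0.0574 in HET and 1.80 ± 0.5996 in WT at day 14, and at 2.23 ± 0.164 in KO and 0.689 ± 0.392 in WT at day 4. It was higher in KO than in WT at day 4 by 1.62 ± 0.34 (edgeR adjusted p = 4.70e-04) and lower in HET than in WT by -2.05 ± 0.44 (edgeR adjusted p = 5.48e-04). Dll4, the Delta-like ligand of endothelial cells, had 1 count in KO, 4 in HET and 36 in WT at day 14. The ratio of WT over KO was 39.6, with a 95% counting interval of 6.67 to 1607. Dll4 averaged 0.559 CPM in WT at day 14 and at most 0.149 in any other group, so it passed the filter on low counts through WT of day 14. Its lower calls against that group were favoured by the filter and are no evidence of their own. Of the 6 listed genes 3 were tested. With Dll4 counted, all 3 were lower in HET than in WT, where 29.9% of all genes were lower. In KO against WT at day 14, 2 of 3 were lower, where 32.2% were. So few genes give no result about the list. In KO against WT at day 4, 1 was higher and 0 lower (0 lower unadjusted), against 35.7% and 33.8%.

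For the 3 members with the widest range of group means among those that reach 5 CPM, the genes most like them over the 15 libraries were sought by the root mean square difference of mean-centred log2(CPM + 0.1), among 11466 genes. Group means of Dll1 spanned 3.71 log2 units, and the genes nearest to it were Gm12840 (difference 0.53), Sphk1, a sphingosine kinase gene (0.54), and Ifi205, an interferon-inducible gene (0.58). Sphk1 was at 134 CPM in KO, 61.7 in HET and 36.6 in WT at day 14, and at 17.0 in KO and 32.8 in WT at day 4. Notch3 spanned 3.05 log2 units, and Car5b, a mitochondrial carbonic anhydrase gene (0.28), Dixdc1 (0.31) and Kif3c, a kinesin gene (0.33), were nearest to it. Jag2 spanned 2.42, and Grasp (0.37), Acsl6, an acyl-CoA synthetase gene (0.37), and March9, a ubiquitin ligase gene (0.38), were nearest. These are descriptions over the same 15 libraries that defined the members' levels.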

How the data were processed

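Total RNA of each sample was made into TruSeq RNA v2 libraries, which do not keep strand, per the labels' protocols. The values are unnormalized counts of reads by gene, deposited separately for every sample. The authors used TopHat2 2.1.0 with GRCm38.p4, HTSeq and DESeq2, per the submitters' processing notes; neither their annotation release nor whether counting used strand is stated in those notes. GENCODE M21, on the same assembly, gave symbols to 46091 of 46603 IDs, and 13544 IDs held no count.

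Everything else was computed from the counts. The test was edgeR 4.0.16 (R 4.3.3), quasi-likelihood with robust dispersion, on all 15 libraries after filterByExpr and TMM scaling, over 15296 genes (common biological CV 8.33%), with a threshold of 0.05 on Benjamini-Hochberg adjusted p within each of 7 comparisons. The SE is that of the fit, with a library's variance never below counting error. CPM uses TMM-scaled library sizes, and levels per kb divide by merged exon length. The script was checked on simulated data. The alternatives were RLE scaling, DESeq2 1.42.0, a filter of 1 CPM in 3 samples or of 1 count only, fits limited to the samples compared, a block for replicate number, and fits without each library. After seeing the data, an exon length correction (a spline in each library) was added. The members and the gene lists were chosen with earlier results of these data known. Named pathway genes are, per list and comparison, up to 2 higher and 2 lower with the smallest adjusted p, and the text describes a part of these. Hes5 and the marker genes were named after their values were seen. The likeness measure took the 3 members with the widest range of group means. The promoter motifs and the sequences shown were chosen after the values were seen. A gene of the receptor cleavage list is not reported here by name.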

Additional observations from a re-analysis of the deposited data

Results flagged for a closer look

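The effect of losing Actb differed between the 2 days for 6 of the 8 tested members. The values are the log2 difference between KO and WT at day 14 minus that at day 4, each tested as an interaction with edgeR over all tested genes, of which 64.7% were called in either direction. They were 3.87 for Dll1, 3.22 for Hes1, 2.13 for Jag1 and 1.22 for Notch2, for which KO stood higher relative to WT at day 14 than at day 4. They were -3.21 for Notch3 and -0.92 for Notch1, for which it stood lower. The WT libraries of day 14, which enter each of these values, differ in long genes, and leaving out any single library kept each of the 6 past the threshold (edgeR adjusted p up to 0.0177, reached for Notch1). Days were not sequenced to the same depth, with 20.02 to 24.8 M counted reads in KO and WT at day 14 and 25.7 to 47.5 M at day 4, and the part of this was not tested.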

How the results depend on the processing

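Of the log2 changes of single members, 712 values under an alternative kept their direction and their side of the threshold, 16 newly passed it, 16 lost it and 19 changed sign, all of the last where the reported change had missed the threshold. The changes of sign without a library left out were Dll1 between the days in WT (-0.0090 with no filter beyond 1 count, -0.17 with the exon length correction), Jag1 in HET against WT (0.059 with the length correction) and Notch3 in HET against WT (0.0026 with no filter, 0.029 with the length correction). With 1 library left out, the ranges that crossed 0 were -0.12 to 0.15 for Jag1 and -0.14 to 0.14 for Notch3 in HET against WT, -0.023 to 0.087 for Notch1 between the days in KO, -0.046 to 0.18 for Dll1 between the days in WT and -0.29 to 0.072 for Jag2 in the difference between the days. For Hey2 they were -0.29 to 1.22 in KO against WT at day 14, -0.90 to 0.27 between the days in KO, -0.90 to 0.61 between the days in WT and -1.13 to 0.45 in the difference between the days. Without HET replicate 3, HET held no Hey2 count and no fold was computed.

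Counts of members called moved by over 1.5 times in few cases. Those higher in HET than in WT numbered 2 with no filter, with the length correction, without HET replicate 2 or without WT replicate 1 of day 14, over a range of 1 to 2 with a library left out. In KO against HET, 3 were higher with only the samples compared, where 7 other pathway genes were higher, and 1 was lower with the length correction or without HET replicate 2 (range 0 to 1). In KO against WT at day 4, 3 were higher with only the samples compared and 2 with the length correction. In KO, 2 fell between the days with only the samples compared. The cause was not tested, except that leaving samples out changes the spread by construction. The replicate numbers gave no pairing: among 30 same-numbered pairs, deviations from group means correlated at a median of -0.00896 (lowest -0.396, highest 0.456), and only 2 exceeded 0.1. With the replicate number as a block, the call of Jag2 between the days in KO was lost (0.56, edgeR adjusted p = 0.0580) and no other result moved. RLE scaling shifted the median of all genes by at most 0.03. Hey1, Hey2 and Heyl are limited by depth, and the receptors in HET and WT of day 14 by the spread of long genes.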
